A study of Homo sapiens with 12 samples.

Results

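Gene expression was compared between arrays that carry replicate numbers 1 and 2 and arrays that carry replicate numbers 3 and 4 in a series on 293T cells. The sides were set by the replicate number in the sample titles alone. They hold 6 arrays each, which are all 12 arrays of the series. 293T is a human embryonic kidney line that carries the large T antigen of SV40. Every culture was transfected with a plasmid by polyethylenimine on 10 cm plates, in medium with serum and antibiotics, and was collected 48 hours later. The plasmid was empty (empty vector), or carried the gene of chr1.tRNA68-Gly(GCC) (tRNA vector), or carried a hairpin that gives rise to CU1276 (hairpin vector). Each side holds 2 arrays of each of the 3 vectors, so the vectors are balanced. All groups share the cell line, the transfection and the plate size, and 12 micrograms of total RNA per sample were labelled with biotin. The titles call the samples biological replicates and do not say whether a number marks a shared culture, day or labelling. P-values therefore measure the spread between these arrays, which may be technical.

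A cultured line can differ between repeats of an experiment in several known ways. Serum, medium and handling act on the immediate early genes, which answer growth factors within minutes. Cell density acts on the cytoskeleton and on growth. Nutrient state acts on the stress responses, on ribosome production and on metabolism. The array reads many genes with several probe sets, each a group of short probes near the 3' end of a transcript or within one of its forms. Probe sets of the same gene can therefore respond to different parts of a transcript, to other poly(A) sites or to the state of the RNA.

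Across the 12 arrays the median signal was 75.9 to 104 and the trimmed mean was 500.1. Most defining genes of the line were present. The neurofilament gene NEFM had a signal of 4426 ± 546.5 in numbers 1 and 2 and of 4852 ± 647.4 in numbers 3 and 4 (SD, n = 6). NEFL had 2791 ± 213.1 and 2662 ± 162.5, the kidney progenitor factor SIX2 1026 ± 67.85 and 958.8 ± 89.91, and the kidney factor WT1 396.3 ± 56.61 and 298.3 ± 44.75 (limma adjusted p = 0.085). Of 26 measured kidney and neuronal genes of the line 1 was lower and 0 higher. When arrays of the same number were allowed to share deviations (the random block described below), 0 passed in either direction. Of all genes 1.63% were higher and 1.75% lower, or 0.538% and 0.731% with the random block. At these shares a list of this size would hold few calls. Over all probe sets 3 of 46 were lower (6.52%), against 3.09% of all probe sets with 1 symbol. Of the 3, 2 were of MAP1B, a neuronal microtubule protein, whose brightest probe set did not pass (limma adjusted p = 0.741). The kidney factor PAX2 was dim (65.98 to 237.3), and LHX1 lay near the filter signal of 43.3 or below (7.095 to 73.48). Of the 15 B cell markers, 9 passed the filter on low signals, with a summed level over all list members on the array of 1133 to 1533 in numbers 1 and 2 and of 1021 to 1377 in numbers 3 and 4. Of the T cell and myeloid markers 6 of 18 passed (733.9 to 1164 and 637.7 to 860.5), where the leukocyte gene PTPRC had a mean signal of 43.62 ± 24.04 and 37.23 ± 28.34 (SD, n = 6). For fibroblast markers 11 of 14 passed, with sums of 1935 to 2381 and 1984 to 2225. The epithelial list had 7 of 15 (3358 to 3906 and 3167 to 3759), the erythroid list 4 of 12 (234.3 to 584.9 and 259.9 to 394.2) and the endothelial list 4 of 11 (544.7 to 928.8 and 426.4 to 769.7). In the comparison of sides given below, 0 genes of the B cell, T cell and myeloid, epithelial, erythroid and endothelial lists passed. These lists are short, so at the shares of all genes this absence says little. Of the fibroblast list COL1A1, a collagen, was higher in numbers 1 and 2 (944.6 ± 132.4 against 686 ± 79.24; limma adjusted p = 0.0313; 0.0942 with the random block) and FBLN1, a matrix glycoprotein, was lower.

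The arrays of the sides differed in measures of labelling and RNA. Control RNAs of Bacillus genes, which are added during labelling, had a mean signal of 1109 to 1197 in number 1 and of at most 259.7 in number 2, and lay at 12.3 to 18.4 in numbers 3 and 4. For ACTB the 3' to 5' ratio of signal, which grows as RNA or its copies shorten, was 2.4 to 3.3 in numbers 1 and 2 and 1.83 to 2.26 in numbers 3 and 4, with no overlap (exact permutation within vectors, two-sided p = 0.00926, the smallest possible; 0.037 after Benjamini-Hochberg adjustment over 4 measures). For GAPDH the ratio was 1.2 to 1.67 and 1.18 to 1.39 (exact permutation p = 0.139, adjusted 0.185). By number, the GAPDH ratio was 1.47 to 1.67 in number 1 and 1.2 to 1.38 in number 2. It was 1.18 to 1.39 in number 3 and 1.2 to 1.31 in number 4, so number 1 lay above all other arrays. These permutations treat arrays of the same number as separate units. With the 4 numbers as units there are 6 arrangements, and the smallest p an exact permutation can give is 0.333. Such a test cannot tell the sides apart. The part of these measures in the gene differences below was not tested.

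The first question is which genes differ between the sides with the vector taken into account. Of 32768 probe sets above the filter, 1451 (4.43%) passed limma with a Benjamini-Hochberg adjusted p under 0.05. They were 487 higher in numbers 1 and 2 (1.49%) and 964 lower (2.94%). When each gene was read by its brightest probe set, 472 of 13952 genes passed (3.38%), 228 higher (1.63%) and 244 lower (1.75%), so the excess of lower calls was small among the brightest probe sets. At an unadjusted p under 0.05 there were 6334 probe sets, against 1638 expected by chance. Among the called probe sets, 963 had no overlap between the 6 arrays of one side and the 6 of the other, and 1249 of all tested (3.81%) had none. With the replicate number as a random block, which lets arrays of the same number share deviations, 689 probe sets passed (2.1%). With the 4 number means as fixed terms 4026 passed (12.3%), but that fit takes only the spread within numbers as error. With the 4 number means as the only units, added after the data were seen, 4 passed. Leaving out 1 array at a time gave 728 (without empty vector array 3) to 2301 (without hairpin vector array 2), and 9 of the 12 arrays moved the count by over 1.5 times.

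Genes higher in numbers 1 and 2 included, by their brightest probe sets, EGR1 of the growth factor response, the actin regulator CDC42, and WTAP of the messenger RNA methylation enzyme. CNN3 was among them by 1 of its 2 probe sets, and the other was lower. The 15 largest among those without overlap ran from 1.87-fold to 3.28-fold (limma adjusted p of 6.51e-06 to 0.0139), and 13 of them also passed with the random block. The 4 probe sets that passed with number means as the only units were not of these genes. Of 29 other probe sets of 12 of these genes, 19 lay the same way, 1 was called alike and 1 opposite. EGR1, a zinc finger factor of the immediate early response, had signals of 1097 to 2352 (median 1744) in numbers 1 and 2 and of 609.6 to 872.3 (median 761.7) in numbers 3 and 4. The 3 arrays numbered 2 were the highest. Its log2 difference was 1.20 ± 0.17 (SE, n = 6 and 6; limma adjusted p = 0.000981), a fold of 2.3. Its 2 dimmer probe sets were at 0.16 and 0.028 (adjusted p = 0.555 and 0.985). By brightest probe sets it was the 1 immediate early gene of 31 measured that passed upwards (3.23%, against 1.63% of all genes), and 0 passed downwards (1.75% of all genes). Over all 60 probe sets of these genes 2 were higher and 2 lower, the lower ones of BTG1 and JUN. The median log2 difference of that list was 0.087, against 0.030 over all genes.

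The region before the EGR1 start is shown because it holds the CArG box, the site bound by serum response factor, which relays growth factor signals to immediate early genes. The 250 bases before the start (RefSeq, GRCh38.p14, plus strand, chr5:138465229-138465478) are given 5' to 3' with each CArG box in capitals, as found on either strand.
EGR1: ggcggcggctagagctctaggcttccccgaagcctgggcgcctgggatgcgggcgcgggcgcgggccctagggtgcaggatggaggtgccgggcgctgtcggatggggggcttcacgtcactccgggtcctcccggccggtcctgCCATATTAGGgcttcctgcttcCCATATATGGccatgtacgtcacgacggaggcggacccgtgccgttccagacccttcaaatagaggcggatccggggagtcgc
It held 2 such boxes. A CArG box was present in 1.16% of 35116 RefSeq promoter windows of this length. RefSeq windows were matched for 14 of the 15 largest higher genes, and 1 of these 14 genes, EGR1, had a box. Windows were matched for 13 of the 15 largest lower genes, and 0 of these had one.

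CNN3, a calponin that binds actin, had signals of 4310 to 6509 (median 5245) in numbers 1 and 2 and of 1931 to 2573 (median 2086) in numbers 3 and 4, a fold of 2.51 (log2 difference 1.33 ± 0.10; adjusted p = 6.51e-06). Its other probe set moved the opposite way, as described further on. CDC42, a small GTPase that directs actin and cell polarity, had 5155 to 9262 (median 7325) against 2841 to 3862 (median 3205), a fold of 2.2 (1.14 ± 0.14; adjusted p = 0.000565). Its 4 dimmer probe sets lay at -0.31 to 0.29, and 0 of them passed. ACTN4, an actin crosslinker, had 1900 to 3416 against 1635 to 2117 and a log2 difference of 0.60 ± 0.12 (adjusted p = 0.0141), and its groups overlapped. In the cytoskeleton list 3 of 43 measured genes passed upwards (6.98%, against 1.63% of all genes) and 2 downwards (4.65%, against 1.75%). With the random block 1 passed upwards, which was ACTN4, and 0 downwards. The other upward members were the tubulins TUBB6 (0.30 ± 0.070; adjusted p = 0.0762 with the random block) and TUBB2A (0.27 ± 0.070; 0.106), and the list's median was 0.063.

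WTAP, a subunit of the enzyme that methylates adenosines in messenger RNA, had 8787 to 14020 (median 11230) against 4759 to 6165 (median 5463), a fold of 2.05 (1.04 ± 0.12; adjusted p = 0.000221). Of its 6 dimmer probe sets 3 lay the same way, and 0 passed. INHBC, a subunit of the activin family, was dimmer (311.7 to 706.2 against 131.1 to 196.6) and had a fold of 3.28 (1.71 ± 0.19; adjusted p = 0.000238). GAS5, a noncoding host of small nucleolar RNAs, had 294.2 to 483.5 against 60.01 to 201.0 on its only tested probe set with 1 symbol, a fold of 3.26. ZNF814, a zinc finger gene, had 320.7 to 496.6 against 102.8 to 170.8, a fold of 3.01. CRIM1, a membrane protein that binds bone morphogenetic proteins, had 952 to 1241 against 444.2 to 571, a fold of 2.13. The others of the 15 were RUFY3, SOD2, SEC22B, MTSS2, RAP2B, COCH and DND1, at 1.87-fold to 2.25-fold. For SOD2 and MTSS2 the adjusted p with the random block was 0.0526 and 0.0527.

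**Figure D1:**
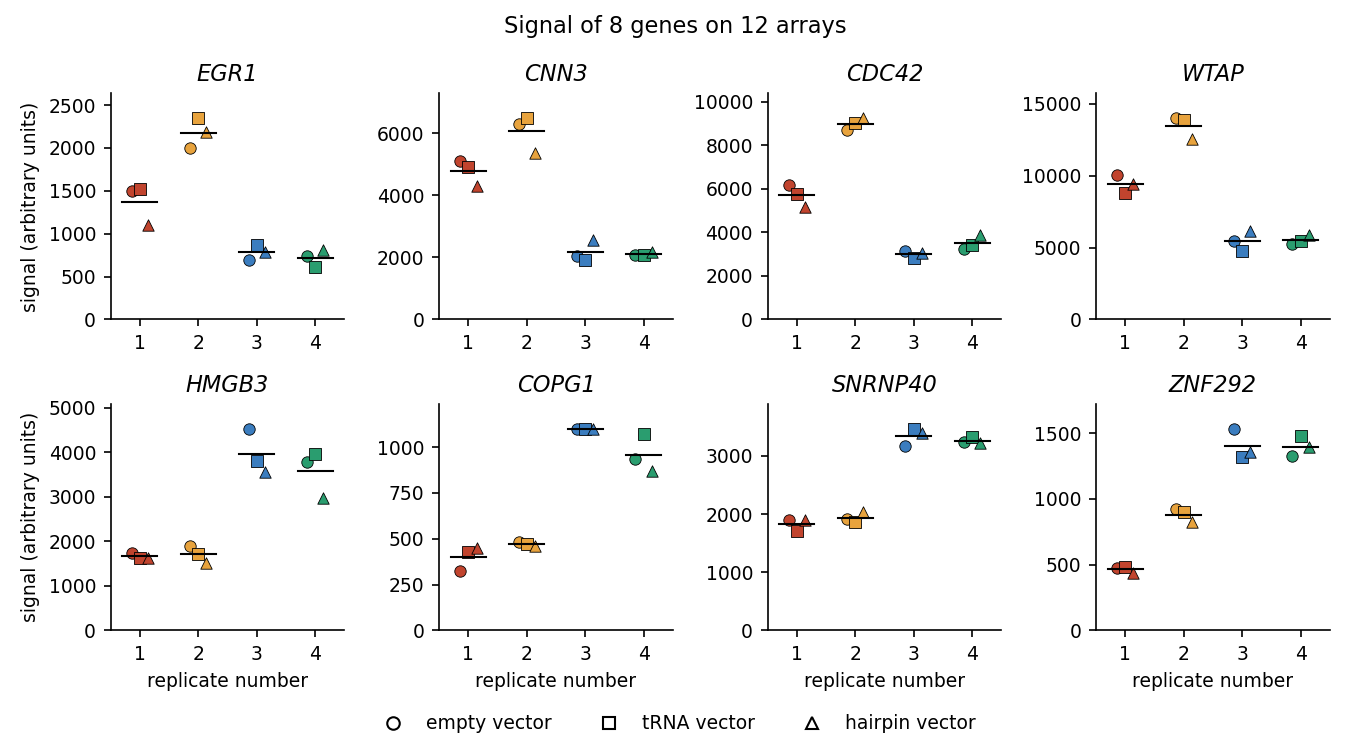
Signal (linear scale, arbitrary units) of 4 genes higher (top) and 4 lower (bottom) in the arrays numbered 1 and 2, by replicate number; points are arrays with the vector as shape, and lines are means of 3 arrays. EGR1, CDC42 and WTAP were highest in number 2, HMGB3, COPG1 and SNRNP40 were at like levels in numbers 1 and 2, and ZNF292 was lowest in number 1.

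Genes lower in numbers 1 and 2 included a chromatin protein, a vesicle coat subunit and several RNA-binding proteins. The 15 largest ran from 1.68-fold to 2.37-fold (limma adjusted p of 1.29e-06 to 0.0249), and all 15 also passed with the random block. The 4 probe sets that passed with number means as the only units were not of these genes. Of 26 other probe sets of 12 of these genes, 21 lay the same way, 8 were called alike and 1 opposite. COPG1, a coat subunit of vesicles that return from the Golgi to the endoplasmic reticulum, had 325.6 to 483.2 (median 456.2) in numbers 1 and 2 and 871.1 to 1101 (median 1085) in numbers 3 and 4. Its log2 difference was -1.24 ± 0.11 (adjusted p = 3.06e-05), which is 2.37-fold lower. HMGB3, a chromatin protein of the high mobility group, had 1509 to 1889 (median 1677) against 2974 to 4537 (median 3802), 2.23-fold lower (-1.16 ± 0.070; adjusted p = 1.29e-06). Its second probe set also passed (-0.53 ± 0.10; adjusted p = 0.0108). SNRNP40, a subunit of the spliceosome's U5 particle, had 1704 to 2031 (median 1905) against 3168 to 3472 (median 3286), 1.75-fold lower (-0.81 ± 0.059; adjusted p = 5.1e-06). Lack of overlap between the sides and the same sign within each vector were conditions for naming these 15 genes, so they are no further support.

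The windows before the starts of HMGB3 and SNRNP40 are shown as those of lower genes whose sides lay far apart on every array, with the CCAAT box, a common promoter element bound by NF-Y, in capitals on either strand (RefSeq, GRCh38.p14). HMGB3 lies on the plus strand at chrX:150983085-150983334, the first of 2 windows listed for it, and SNRNP40 on the minus strand at chr1:31296789-31297038.
HMGB3: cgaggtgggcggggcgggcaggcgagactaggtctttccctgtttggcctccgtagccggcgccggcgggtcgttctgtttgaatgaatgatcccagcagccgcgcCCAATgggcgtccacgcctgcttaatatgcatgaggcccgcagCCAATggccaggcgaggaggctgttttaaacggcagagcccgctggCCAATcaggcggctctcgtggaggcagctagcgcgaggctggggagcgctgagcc
SNRNP40: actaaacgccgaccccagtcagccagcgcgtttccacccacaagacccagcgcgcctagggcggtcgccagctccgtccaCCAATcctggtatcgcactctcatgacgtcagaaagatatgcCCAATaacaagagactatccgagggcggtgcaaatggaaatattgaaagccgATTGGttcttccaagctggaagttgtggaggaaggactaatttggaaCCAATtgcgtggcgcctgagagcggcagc
They held 3 and 4 CCAAT boxes. The letters CCAAT, on either strand, stood in 8 of 20 windows of the largest lower genes (40%), in 10 of 21 windows of the largest higher genes (47.6%) and in 32% of all windows. A match in these letters describes the sequence and is no evidence of a factor bound there.

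TOMM22, the import receptor of the mitochondrial outer membrane, had 2268 to 3196 (median 2635) against 4525 to 5497 (median 5205), 1.88-fold lower (-0.91 ± 0.061; adjusted p = 2.33e-06), and its dimmest probe set was higher, as given further on. RTN3, which shapes endoplasmic reticulum tubules, was 1.76-fold lower, and its second probe set also passed. TRA2A, a splicing activator, had 1361 to 2243 against 3079 to 3694, 1.81-fold lower. TNPO2, an import receptor for RNA-binding proteins, was 1.81-fold lower, with all 3 of its probe sets called. IGF2BP1, which binds and stabilises messenger RNAs, was 2.02-fold lower. ZNF292, a zinc finger gene, had 434.1 to 921.1 against 1320 to 1535, 2.19-fold lower, and was lowest in number 1. The remaining 6 were ZNF397, ZDBF2, ZNF148, TEAD2, FBLN1 and FUT8, at 1.68-fold to 2.17-fold.

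The gene lists, read by brightest probe sets, held few calls between the sides, where 1.63% of all genes were higher and 1.75% lower. Endoplasmic reticulum chaperones had 3 of 34 members lower (8.82%) and 0 higher, and 2 lower with the random block. PDIA4, a disulfide isomerase, had 1464 to 1787 against 2230 to 2774 (-0.61 ± 0.074; adjusted p = 0.000414). HYOU1, a chaperone of the HSP70 family, had 2194 to 2594 against 2778 to 3621 (-0.48 ± 0.073; adjusted p = 0.00203). HSP90B1, which folds secreted proteins, had a log2 difference of -0.49 ± 0.11 (adjusted p = 0.0207; 0.0569 with the random block), with its other probe set at 0.38. The list's median was 0.008, so its other members did not lie lower as a body. Ribosome biogenesis had 5 of 54 higher (9.26%) and 1 lower (1.85%). Among the higher were PNO1 (0.40 ± 0.079), WDR75 (0.31 ± 0.074), UTP18 (0.27 ± 0.059) and RRP1B (0.21 ± 0.054), which assemble or process ribosomal particles, while the list's median was -0.039. Genes of E2F and the entry into S phase had 4 of 64 higher (6.25%) and 2 lower (3.12%). The higher were ORC1, which marks replication origins (0.39 ± 0.10), the polymerase subunit POLD3 (0.27 ± 0.064), the clamp loader RFC4 (0.26 ± 0.068) and thymidylate synthase TYMS (0.22 ± 0.059), and another TYMS probe set passed the other way at -0.35. Mitochondrial ribosomal proteins had 3 of 75 higher (4%), MRPS15, MRPL9 and MRPL15, at 0.22 to 0.26. With the random block, under which 0.538% of all genes were higher and 0.731% lower, 1 gene of ribosome biogenesis, 0 of the E2F list and 0 of the mitochondrial ribosomal proteins were higher. No called gene was found in either direction among p53 targets (30 measured), cytosolic ribosomal proteins (54), histone genes (25), circadian clock genes (20) or interferon-stimulated genes (29). At the shares of all genes, lists of this size would hold few calls, so their absence says little. Over all probe sets, 2 of 70 of the p53 targets were higher and 2 lower. Of 45 of the interferon-stimulated genes 2 were lower, both of HLA-B.

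The calls depended strongly on which probe set of a gene was read. Where a gene had a single tested probe set, 88 of 6941 were higher and 67 lower. Among the brightest of several, 140 of 7011 were higher and 177 lower. Among the 12723 that were not the brightest, 175 were higher (1.38%) and 580 lower (4.56%). Probe sets with no symbol had 67 higher and 102 lower, and those with several symbols 17 and 38. Most of the lower excess therefore lay in the dimmer probe sets of genes that have several, where it was present with quantile normalization (208 and 558) and with the random block (84 and 315). Of 317 called genes with a second tested probe set, the second had the same direction in 192 (60.6%), against 51.7% of uncalled genes. It was itself called the same way in 41 and the opposite way in 11.

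PSMB4, a proteasome subunit, showed a wide split. The dimmest of its 3 probe sets had 1500 to 2396 (median 2164) in numbers 1 and 2 and 263.5 to 444.9 (median 353.2) in numbers 3 and 4, a fold of 5.74 (2.52 ± 0.14; limma adjusted p = 1.29e-06). Its 2 brighter probe sets moved down. The brightest had 7022 to 9131 against 9907 to 11700 (-0.42 ± 0.076; adjusted p = 0.00699). The next had 4377 to 6871 against 9399 to 12000 (-0.93 ± 0.098; adjusted p = 0.000144). The dimmest PSMB4 probe set was 1 of the 4 that passed with number means as units. The others read UBE2B, a ubiquitin-conjugating enzyme (3.7-fold higher), NPEPPS, an aminopeptidase (2.88-fold higher), and 1 transcript with no listed symbol (3.49-fold higher). For UBE2B and NPEPPS the brightest probe set was not called (log2 difference -0.14 and -0.23). This choice was made with the values in view.

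Of 877 genes with several tested probe sets and at least 1 call, 44 had calls in opposite directions. CNN3 was one, with the brighter probe set higher as given above and the dimmer lower at 1137 to 1290 against 2036 to 2330 (-0.84 ± 0.064; adjusted p = 6.48e-06). HNRNPH1, a splicing regulator, had its brightest probe set at 22220 to 39980 against 16690 to 19450 (0.73 ± 0.13; adjusted p = 0.00521), and the next at 2286 to 5931 against 7253 to 10370 (-1.23 ± 0.18; adjusted p = 0.0013). For TOMM22 the brighter probe sets were lower and the dimmest higher (1.06; adjusted p = 0.00699). For such genes no single direction of the transcript can be given.

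In 112 genes 2 or more probe sets were called alike, 14 higher and 98 lower. Some of the 98, picked with their values in view, are given here. RBM25, a splicing regulator, had 5 of 7 probe sets lower, at -0.23 to -1.11. DDX17, an RNA helicase, had 3 of 5 lower at -1.44 to -2.08, while its brightest did not pass (14480 to 19600 against 16950 to 18030; -0.032 ± 0.068; adjusted p = 0.842). DDX3X, another helicase, had 3 of 4 lower at -0.48 to -1.66, with its brightest at 0.0020 ± 0.065. TRA2A had 3 of 4 lower, at -0.85 to -1.82. BRD2, a bromodomain reader of acetylated histones, had all 3 lower, at -0.61 to -1.07.

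**Figure D2:**
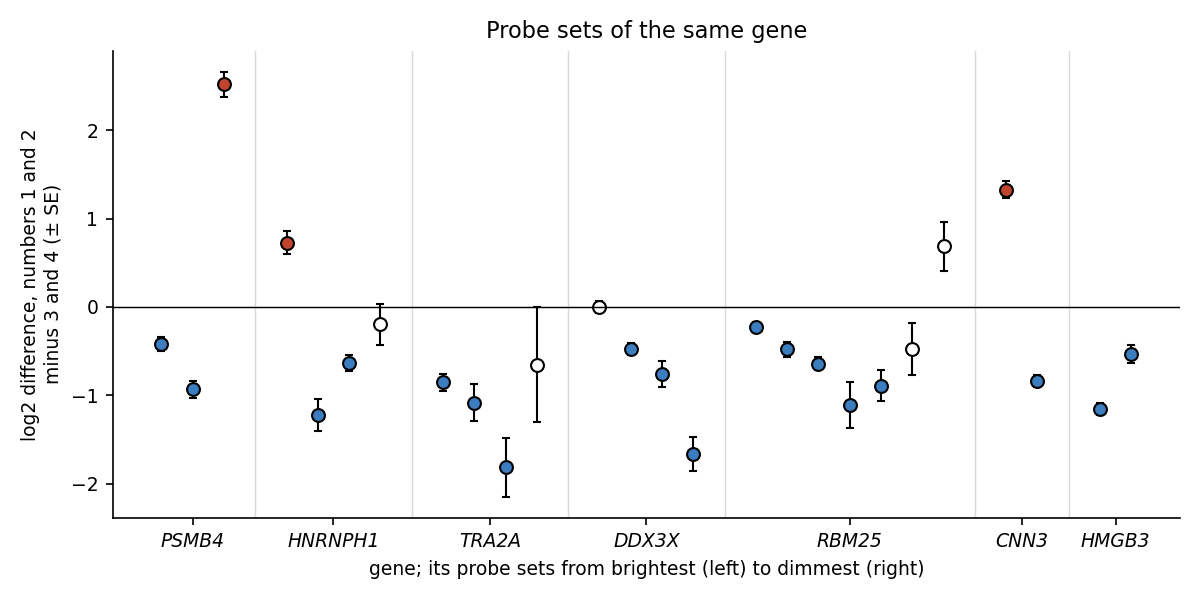
Log2 difference (numbers 1 and 2 minus 3 and 4) of each tested probe set of 7 genes, ordered within a gene from brightest to dimmest; bars are limma standard errors, filled points have an adjusted p under 0.05, and open points do not. PSMB4, HNRNPH1 and CNN3 had called probe sets in opposite directions, RBM25, TRA2A and DDX3X had several lower ones, and for HMGB3 both were lower.

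Counted over all probe sets, SR proteins and hnRNPs, the main families of splicing regulators, had 20 of 188 lower (10.6%) and 3 higher, against 3.09% lower and 1.51% higher over all probe sets with 1 symbol. The lower calls fell in 15 of 52 genes, among them SRSF1, SRSF4, SRSF10, HNRNPU and HNRNPH3. Of their probe sets that were not the brightest, 18 of 136 were lower (13.2%), against 4.56% of all such probe sets. Read by the brightest probe set, 2 of these 52 genes were higher and 2 lower. Endoplasmic reticulum chaperones had 11 of 84 lower (13.1%), in 8 genes that included CANX, CALR and DNAJC3. Small RNA machinery had 8 of 57 lower (14%), in 4 genes that included DDX17, DICER1, the enzyme that cuts microRNA precursors, and TNRC6B, a silencing partner of Argonaute. Cytosolic ribosomal proteins had 0 of 107 lower and 4 higher. Mitochondrial ribosomal proteins had 0 of 126 lower and 4 higher. With the random block, under which 0.596% of all probe sets with 1 symbol were higher and 1.56% lower, 12 probe sets of SR proteins and hnRNPs, 5 of the chaperones and 6 of the small RNA machinery were lower. Of the cytosolic ribosomal proteins 1 was then higher and of the mitochondrial ones 0. The lists differ in how many probe sets per gene they hold and in brightness, and the share of called probe sets grew from 0.574% in the dimmest of 4 equal classes of signal to 8.13% in the brightest.

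The second question is whether numbers 1 and 2, and numbers 3 and 4, belong together, as the division into 2 sides takes for granted. Numbers 3 and 4 did not separate: 0 of 32768 probe sets passed (0%), with 1533 at an unadjusted p under 0.05, 0 by a plain two-sample test, and a smallest limma adjusted p of 0.098. Numbers 1 and 2 did separate. Between them 4268 probe sets passed (13%), 1719 higher (5.25%) and 2549 lower (7.78%) in number 1. By limma that count was close to the 4801 (14.7%) between 1 and 3 and the 4554 (13.9%) between 1 and 4. Number 2 stood closer to 3 and 4, with 850 (2.59%) and 853 (2.6%). The plain two-sample test called fewer, with 558 between 1 and 2, 2095 between 1 and 3 and 2280 between 1 and 4. Between 2 and 3 it called 24, and between 2 and 4 it called 16. Such counts also depend on the spread within each number, so they do not measure how far numbers lie apart. The pairs share arrays and each has 3 against 3. The median absolute log2 difference was 0.14 between 3 and 4, 0.27 between 1 and 2, and 0.26 between 1 and 3 and between 1 and 4. It was 0.19 between 2 and 3 and between 2 and 4. Leaving out single arrays gave 2240 (without hairpin vector array 1) to 4160 between 1 and 2, and 0 to 1 between 3 and 4. Of the 1451 probe sets called between the sides, 419 (28.9%) were also called between numbers 1 and 2. The arrays numbered 1 and 2 did not form 1 group in these data, and a mean over them covers 2 levels for many genes.

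**Figure D3:**
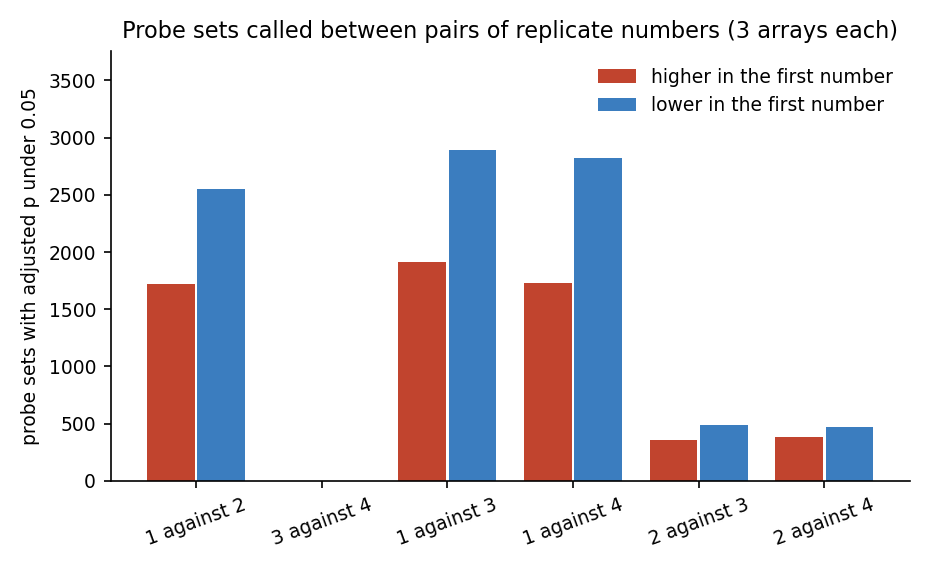
Number of probe sets with a limma adjusted p under 0.05 in each of the 6 pairs of replicate numbers, split by direction relative to the first number. The pair 3 against 4 has 0 calls, the pairs with number 1 have 4268 to 4801, and the pairs of number 2 with 3 or 4 have 850 and 853.

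The same arrangement was seen without a test. After each vector's mean was taken out, the first component, with 23.8% of the variance, placed the arrays numbered 1 at -81.9 to -62.7 and the other 9 arrays between 2 and 37.4. The second, with 14.7%, placed those numbered 2 at -62.5 to -48.8 and the others between 2.8 and 37.2. Among the 15 largest higher genes 7 were also called between numbers 1 and 2, all 7 of them with number 2 above number 1. Among the 15 largest lower genes 5 were called, 3 of them with number 2 above number 1. Of all genes 7.26% were higher in number 1 than in number 2 and 4.29% lower. Of the probe sets called between the sides, 28.9% were also called between numbers 1 and 2. Numbers 3 and 4 were called apart for 0 of all tested probe sets, so the same holds for these 30 and adds nothing about them.

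**Figure D4:**
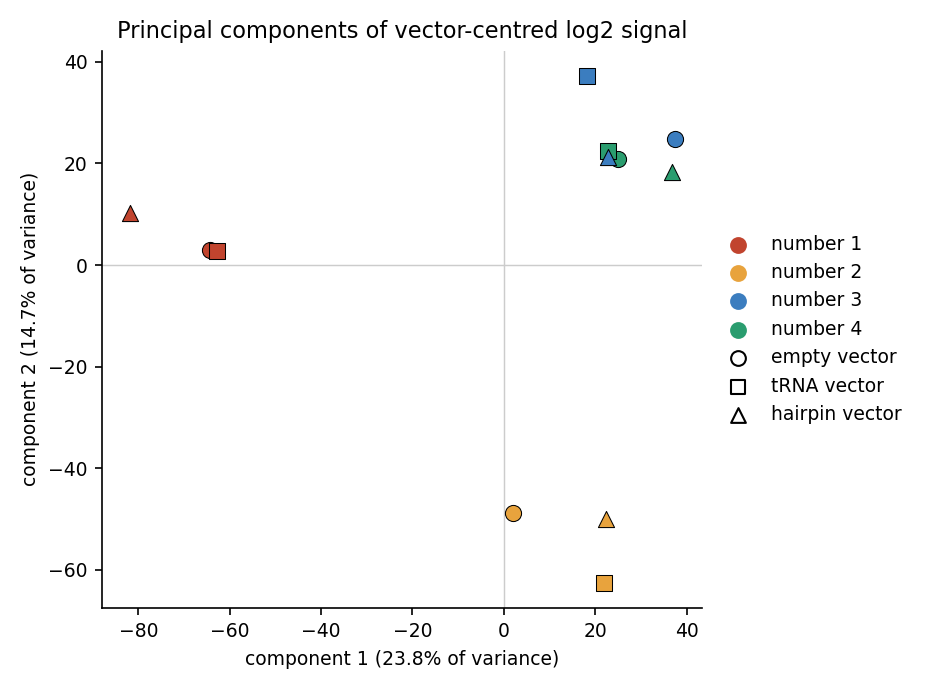
First and second principal components of log2 signal after each vector's mean was removed; points are the 12 arrays, colour is the replicate number and shape the vector. The arrays numbered 1 lie apart on component 1 and those numbered 2 on component 2, while numbers 3 and 4 share a region.

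Between numbers 1 and 2 the leading genes included RNA-binding proteins, a translation factor and a homeobox factor. TAF15, an RNA-binding protein of the FET family, had signals of 373.2, 335.7 and 436.5 in number 1 in the order empty, tRNA and hairpin vector, and of 2430, 1961 and 2098 in number 2. Numbers 3 and 4 had 2297 to 2729, so number 1 alone was low. The log2 difference of 1 minus 2 was -2.50 ± 0.10 (n = 3 and 3; limma adjusted p = 1.56e-08), and its second probe set also passed (-1.39 ± 0.25). EIF5A, a translation factor, had 1166, 1332 and 1016 in number 1 and 109.6, 187.9 and 183.5 in number 2 (2.90 ± 0.24; adjusted p = 9.75e-06). Its levels in numbers 3 and 4 were between these, at 206.2 to 473.8. HOXB8, a homeobox factor, had 276.2, 243.1 and 316.4 against 804.5, 1061 and 1039 (-1.79; adjusted p = 3.26e-06). ALYREF, which exports messenger RNA, had 2472, 2298 and 2862 against 901, 886.4 and 1055 (1.42; adjusted p = 2.58e-05).

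SRSF6, a splicing regulator, had 6508, 5554 and 6828 in number 1 and 2306, 2586 and 3153 in number 2, with 3741 to 4484 in numbers 3 and 4. The sides then averaged 4489 ± 2042 and 4280 ± 281.3 (SD, n = 6), and the comparison of sides shows none of this change (-0.065 ± 0.25; adjusted p = 0.917). SET, a histone chaperone and phosphatase inhibitor, had 17100, 17030 and 12150 against 35720, 44630 and 33900 (-1.31 ± 0.098; adjusted p = 3.81e-06). Its second probe set passed the other way (1.72 ± 0.28; adjusted p = 0.0012).

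Gene lists also held calls between numbers 1 and 2, where 7.26% of all genes were higher in number 1 and 4.29% lower. Subunits of oxidative phosphorylation had 18 of 69 higher and 2 lower (median 0.14), and 22 and 3 with quantile normalization. Mitochondrial ribosomal proteins had 19 of 75 higher and 1 lower (14 and 2 with quantile normalization). The integrated stress response, which answers amino acid shortage and unfolded proteins, had 9 of 37 higher and 1 lower (6 and 2). P53 targets had 7 of 30 higher and 1 lower (6 and 1), in a line whose p53 is bound by T antigen. Splicing regulators had 10 of 52 lower and 4 higher (12 and 3). Cytosolic ribosomal proteins had 31 of 54 lower and 2 higher, with a median of -0.30 in the deposited scaling, and 1 lower and 6 higher with a median of 0.026 after quantile normalization, so no direction can be given for them. The share of probe sets called between numbers 1 and 2 was 2.66% in the dimmest of 4 equal classes of signal. It was 24.6% in the brightest. Where a gene had several probe sets, 9.01% of the brightest were higher in number 1 and 5.58% lower. Of those not the brightest, 4.09% were higher and 10.6% lower. The list counts were not matched for brightness, so the shares over all genes are a loose comparison. Between numbers 3 and 4, 0 of all tested probe sets passed, so 0 members of any list did.

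**Figure D5:**
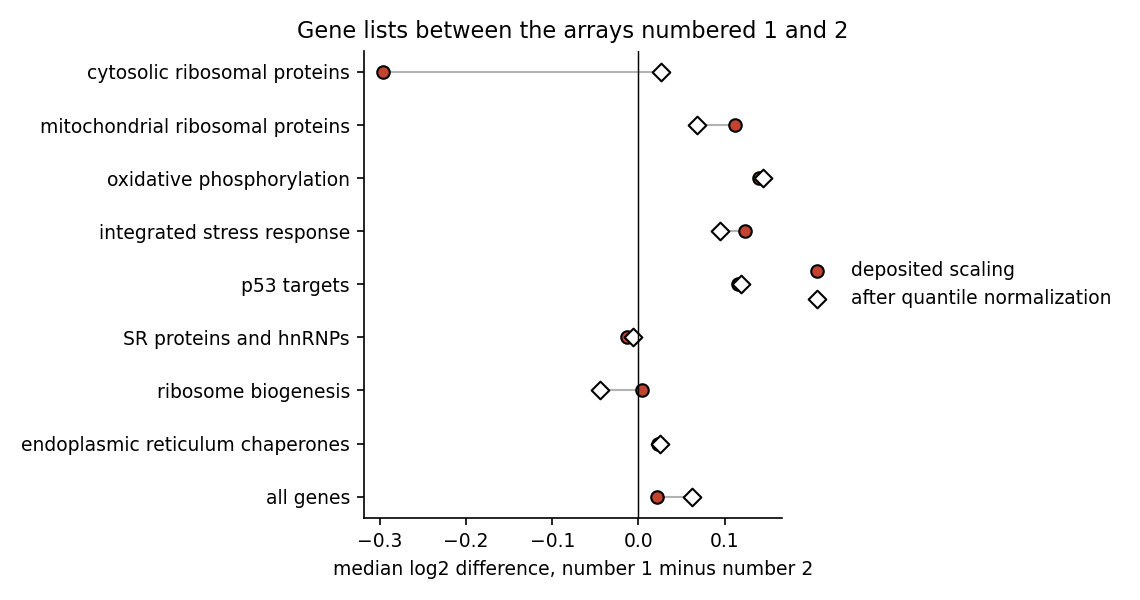
Median log2 difference of number 1 minus number 2 over the measured genes of 8 lists and over all genes, in the deposited scaling (filled) and after quantile normalization (open). The cytosolic ribosomal proteins move from -0.30 to 0.026, and the oxidative phosphorylation list stays near 0.14.

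The third question is whether the difference between the sides depended on the vector. The interaction of vector and side passed for 0 of 32768 probe sets (0%) by the limma F test, with 574 at an unadjusted p under 0.05 against 1638 expected by chance, and the smallest adjusted p was 1. This fit counts the differences between numbers of the same side as error, which weakens it. With the number within a side as a further term, 1174 lay under an unadjusted p of 0.05 by the F test and 0 passed. With 2 arrays per vector and side, a p that misses the threshold does not show that the vectors act alike. The log2 differences of HMGB3 were -1.19, -1.21 and -1.06 on arrays of the empty, tRNA and hairpin vector in turn. In the same order EGR1 had 1.27, 1.38 and 0.95. GAS5 spanned a wider range, with 1.08, 2.48 and 1.56.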

How the data were processed

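The authors deposited 1 linear MAS5 signal intensity per probe set and array. Per the submitters' processing notes the software was MAS5, with no version stated, and a genome build is not given in the sources used here. The 2% trimmed mean of each column was 500.1, so the arrays had been scaled to a common intensity. Of 54675 probe sets, 41097 had 1 symbol in the array's annotation, 1801 several and 11777 none; 62 controls and 21845 dim probe sets (mean log2 signal under the 40th percentile) were left out. Log2 signals, without an offset, were fitted in limma 3.58.1 (R 4.3.3; lmFit, eBayes with an intensity trend) with side and vector as terms, and adjusted by Benjamini-Hochberg over 32768 probe sets, two-sided; pairs of numbers came from a fit of 4 number means and vector. Differences are numbers 1 and 2 minus 3 and 4, and a gene is its brightest probe set with 1 symbol. Ratios of control signals were compared by exact permutation within vectors and adjusted over 4 measures, of which 1 is not reported here and was counted as the largest p. The fit was tested on simulated data.

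The comparison, the 39 gene lists and the rules were chosen with earlier results of these data known. Named genes were the 15 largest in each direction among called genes with no overlap, the same direction in 3 vectors and a signal of at least 200 on the higher side; up to 4 called members of lists with at least 3 calls in a direction; and the 3 highest and 3 lowest between numbers 1 and 2. Alternatives were the number as random or fixed block, quantile normalization, other filters, an offset of 32, each array, number or vector left out or taken alone, a plain test and the next brightest probe set. The precision is limited by the number of arrays.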

Additional observations from a re-analysis of the deposited data

Results flagged for a closer look

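Of 78 groups of 6 arrays, made from the genes named by rule and the control ratios, 4 held 1 array far from the other 5 by Dixon's criterion, which chance meets in about 1 of 20 groups. For COPG1, empty vector array 1 had a signal of 326 among the arrays numbered 1 and 2, below the others at 428.9 to 483.2. For TNPO2, hairpin vector array 4 had 2710 among those numbered 3 and 4, above the others at 1717 to 2022. For SRSF6, hairpin vector array 4 had 3740, below 4205 to 4484. For ALYREF, empty vector array 4 had 925, below 1242 to 1431.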

How the results depend on the processing

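The count of 1451 probe sets between the sides was within 1.5 times of itself with quantile normalization, no filter, a stricter filter, an offset of 32 and number 1 left out (1191 to 1701). It was 6620 without number 2, 125 without number 3, 132 without number 4, 2336 by a plain two-sample test and 4 with number means as units. The fits without 1 number were of equal size, and their counts lay above and below 1451. With the empty, tRNA and hairpin vector arrays alone the count was 30, 15 and 0, in designs with fewer arrays and fewer degrees of freedom. With single arrays left out it was 728 to 2301, below 1451 by over 1.5 times without empty or tRNA vector arrays 1, 3 or 4 or hairpin vector arrays 3 or 4, and above it without hairpin vector array 2. With the replicate number as a random block it was 689 and with a fixed block 4026. Deviations from the vector means correlated between same-numbered arrays at 0.284 to 0.356 for number 1 and 0.108 to 0.15 for number 2. The values were 0.0987 to 0.126 for number 3 and 0.113 to 0.134 for number 4. Between numbers 3 and 4 they were 0.093 to 0.148. Between number 1 and number 2 they were -0.129 to -0.00661. Between 1 and 3 they were -0.231 to -0.108, and between 1 and 4 -0.205 to -0.134. Arrays numbered 1, and those numbered 2, thus correlated more with each other than with arrays of other numbers. For numbers 3 and 4 the values within a number were like those between them. The main fit counts all arrays as separate. The fit with the number as a random block stands beside it for that reason. The fixed block takes only the spread within numbers as error, so its larger count makes no allowance for differences between numbers. The cause of these shifts was not tested.

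Leaving out arrays singly gave 2240 to 4160 calls between numbers 1 and 2, 0 to 1 between 3 and 4, 3031 to 5259 between 1 and 3, 2578 to 4927 between 1 and 4, 464 to 981 between 2 and 3, and 384 to 1159 between 2 and 4. The interaction with vector kept 0 calls. The log2 difference of the ratio of 3' to 5' signal was 0.0661 to 0.227 for GAPDH and 0.354 to 0.494 for ACTB; for GAPDH it passed 0.05 (exact permutation p = 0.037) without hairpin vector array 2. The log2 difference in the geometric mean signal of the hybridization controls was 0.33 (exact permutation p = 0.0185) with all arrays and 0.232 to 0.428 with 1 left out, and 3 of those 12 values missed 0.05 (exact permutation p of up to 0.0833). The 57 list members called became 122 without number 1, 268 without number 2, 4 without number 3 and 5 without number 4.

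Read by the next brightest probe set, 9 of 38 named genes stayed on the same side of the threshold, 18 kept the sign and lost the call, and 11 changed sign: CNN3 (-0.84), CRIM1 (-0.27), RAP2B (-0.026), ZNF292 (0.21), ZNF148 (0.12), EIF5A (-0.057), TYMS (-0.35), SRSF6 (0.57), RRP1B (-0.23), SET (-0.80) and HSP90B1 (0.38). Genes led by numbers 1 or 2 changed sign when a number was left out: EIF5A (-1.05) and ALYREF (-0.42) without number 1, and SRSF6 (0.55) and SET (-0.33) without number 2. SRSF6 was 0.23 with the hairpin vector alone and -0.24 to 0.14 with single arrays left out, above 0 only without an array numbered 2. The random block left 38 of 53 named genes on the same side of the threshold and 15 not. Signals near the filter carry few calls: 0.574% of the dimmest of 4 equal classes.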
